A study of Mus musculus with 18 samples.

Results

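The 9 genes described here encode surface proteins through which B cells exchange costimulatory and inhibitory signals with T cells or show their own activation. They are the ligands Cd80, Cd86, Cd274, Pdcd1lg2 and Icosl, the inhibitory receptors Btla and Lag3, and the activation markers Cd83 and Cd69, chosen by name as 9 of the 55487 genes in the count tables. Of these 9 genes, 8 held enough reads to be tested and Pdcd1lg2 did not. RNA was sequenced from WEHI-231 cells, a murine immature B lymphoma line, in 18 libraries that fall into 9 groups of 2. Parental cells with intact Tfeb and 2 clones mutant for TFEB, #A-59 and #B-20, were taken untreated (0 h) or 6 or 18 h after addition of anti-mouse IgM F(ab')2 at 10 µg/ml. The replicates come from independent experiments, and no label ties a replicate number to one of these across groups. TFEB is a transcription factor best known for lysosomal genes, and the comparisons ask which transcripts depend on it at rest and after engagement of the B cell receptor (BCR). The mutants were made by electroporating Cas9 complexes against an exon of Tfeb, followed by dilution to single cells, so that each mutant is 1 clone, and no TFEB-intact clone was analysed here. All groups share the same lymphoma background, and a difference that belongs to a clone rather than to the mutation cannot be told apart from one that belongs to the mutation.

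CD80 and CD86 on B cells bind CD28 and CTLA-4 on T cells, which activate or restrain the T cell. PD-L1 (Cd274) and PD-L2 (Pdcd1lg2) bind the inhibitory receptor PD-1 (Pdcd1), and the ICOS ligand (Icosl) sustains T follicular helper cells through ICOS. BTLA is an inhibitory receptor of lymphocytes whose partner is HVEM (Tnfrsf14), and LAG-3 is an inhibitory receptor that binds MHC class II. CD83 stabilizes MHC class II and CD86 at the cell surface, and CD69, an early activation marker of lymphocytes, holds cells in lymphoid tissue by opposing S1PR1.

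The start regions of the ligands Cd274 and Icosl and of the receptor Btla are shown. These 3 genes differed between genotypes, as described below, and had a window in the reference. Lag3 and Cd83, which also differed between genotypes, had none. Each run is the 250 bases before a transcription start in RefSeq on GRCm38.p6, plus strand, with CpG dinucleotides in capitals. The windows of Cd274 and Btla lie within the spans of these genes given below, and so do not precede their outermost start. Other starts were not searched. The windows are chr19:29367188-29367437 for Cd274, chr10:78069118-78069367 for Icosl and chr16:45224087-45224336 for Btla.
Cd274: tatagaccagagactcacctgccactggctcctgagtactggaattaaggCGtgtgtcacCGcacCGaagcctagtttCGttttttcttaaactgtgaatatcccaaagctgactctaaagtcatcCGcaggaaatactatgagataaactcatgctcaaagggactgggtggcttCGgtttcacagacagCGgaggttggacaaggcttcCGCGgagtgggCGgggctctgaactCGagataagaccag
Icosl: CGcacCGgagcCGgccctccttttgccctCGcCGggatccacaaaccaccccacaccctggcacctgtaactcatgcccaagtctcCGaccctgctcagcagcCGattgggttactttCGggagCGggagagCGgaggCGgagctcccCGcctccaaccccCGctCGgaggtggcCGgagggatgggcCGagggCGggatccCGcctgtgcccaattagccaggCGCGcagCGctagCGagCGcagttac
Btla: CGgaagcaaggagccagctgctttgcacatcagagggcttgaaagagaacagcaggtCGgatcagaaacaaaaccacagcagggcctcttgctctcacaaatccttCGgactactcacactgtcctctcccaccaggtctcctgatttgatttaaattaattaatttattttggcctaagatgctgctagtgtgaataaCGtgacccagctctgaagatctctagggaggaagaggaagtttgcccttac
The window of Icosl was the richest in CpG, with 23 such dinucleotides and a GC content of 68.8%, against 11 and 50.4% for Cd274 and 4 and 47.2% for Btla. The median over 32851 RefSeq promoter windows of this length was 6 CpG dinucleotides and a GC content of 52.4%. Windows were also found for Cd80, again within the gene, and for Pdcd1lg2, and all 5 were searched on both strands for 5 short motifs. The E-box core of TFEB (CACGTG, in 6.02% of all windows), its longer form (TCACGTGA, 0.785%), which contains the core, an NF-kB form (GGGNNTTTC, 3.72%) and an AP-1 form (TGACTCA, 4.46%) matched none of these 5 windows. The NFAT core (GGAAAA, 20.4% of all windows) matched only that of Pdcd1lg2, 22 bases before the start.

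The libraries held between 11223588 and 29655262 counts, with a median of 19846544. Levels are given as counts per Mio reads (CPM) after TMM scaling of library sizes by edgeR. Tfeb was lower in all 12 libraries of the clones, at 25.5 to 54.1 CPM, than in the 6 parental libraries, at 79.2 to 99.9 CPM. All 8 B lineage markers examined were expressed, whereas the T cell markers Cd3e, Cd3d, Cd3g, Cd4 and Cd8a stayed at or below 9 counts and the myeloid markers Cd14, Lyz2 and Flt3 at or below 1 count. Other myeloid markers had more, with 13 to 49 counts for Xcr1, 5 to 33 for Adgre1, 0 to 57 for Csf1r and 0 to 5 for Itgax. Of the markers of other cell types, Cd8b1 (47.6 to 97.5 CPM), the plasma cell factor Irf4 (45.7 to 163 CPM) and Itgam (0.306 to 26.3 CPM) reached the highest levels, and the summed level of the 3 NK cell markers did not exceed 0.523 CPM. The summed level of the 8 myeloid markers was 9.24 to 30.7 CPM in #A-59, 3.89 to 8.39 CPM in #B-20 and 3.01 to 12 CPM in parental cells. Its part in the results below was not tested.

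The 9 genes differed widely in abundance. Per kilobase of exon, the median level over the 18 libraries was 37.8 CPM for Btla, 2.73 for Cd83, 1.61 for Icosl, 1.36 for Cd69, 1.23 for Lag3 and 1.04 for Cd274. Cd80 and Cd86, the classical ligands of CD28, were near the detection limit at 0.132 and 0.0809 CPM per kilobase, with 6 to 24 and 0 to 18 counts in a library. Pdcd1lg2 had no count in 11 libraries and never more than 3, which is the number of counts that a value of 0 still allows. With 10 counts over all libraries, PD-L2 transcripts were too few to be tested at this depth.

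**Figure D1:**
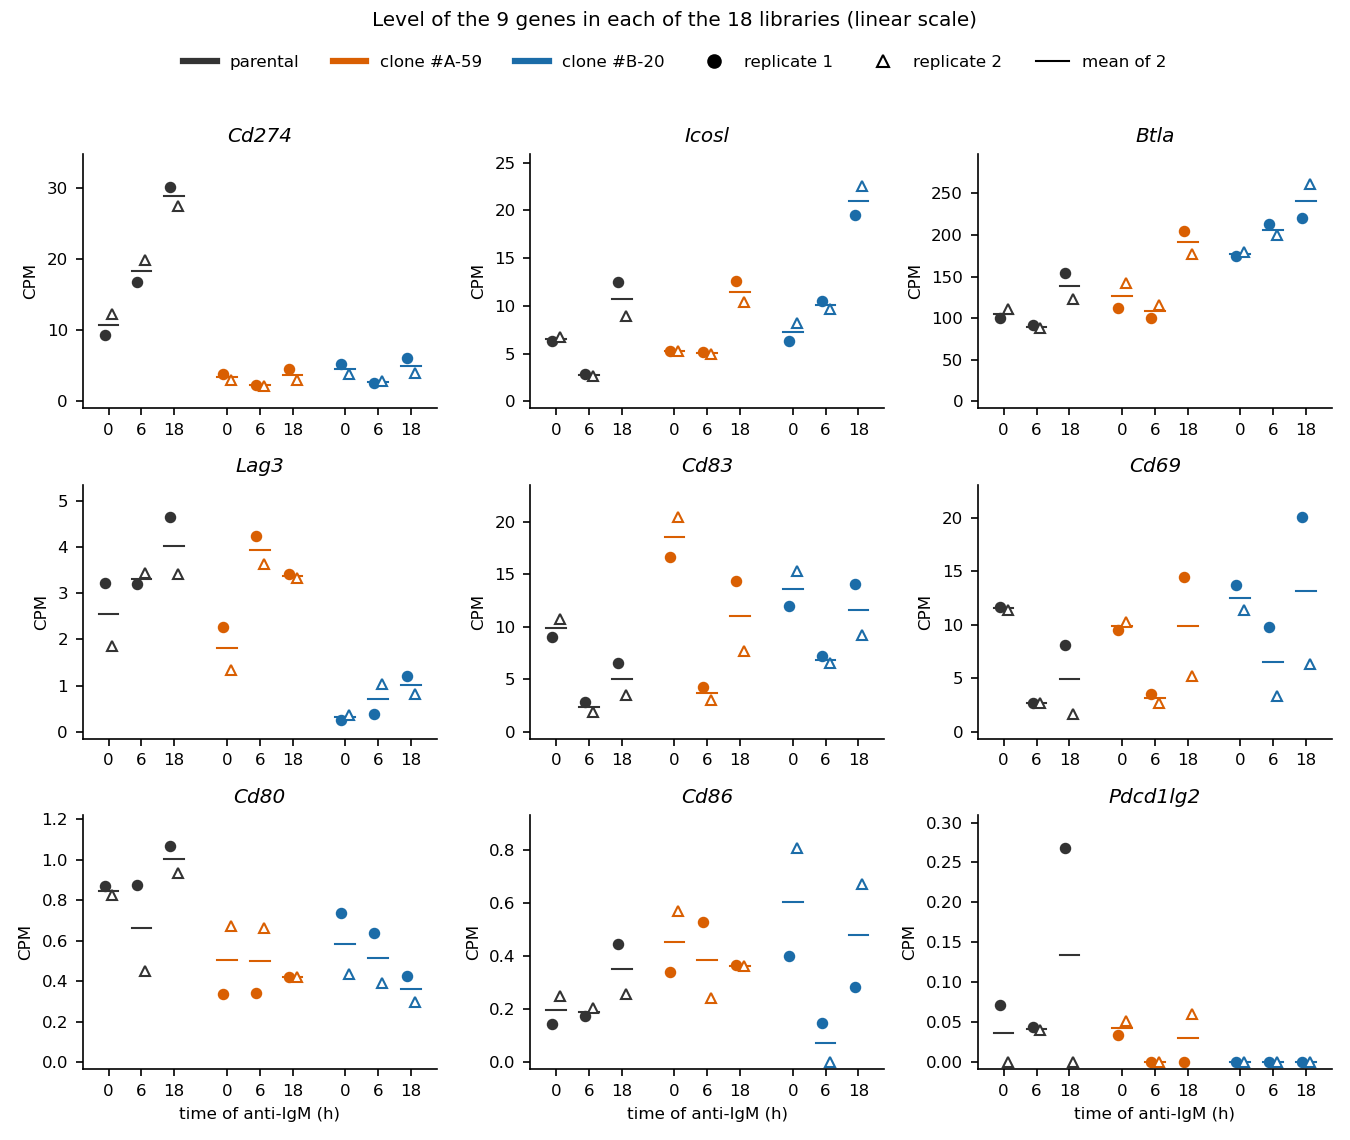
CPM (linear axis) of each of the 9 genes in every library, by genotype (colour) and time of anti-IgM, with filled circles for replicate 1, open triangles for replicate 2 and a bar for their mean. The 6 parental libraries of Cd274 lie above all 12 libraries of the clones, those of Lag3 lie above all 6 libraries of #B-20, and Cd69 at 18 h differs between the replicates of each genotype.

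A difference was called when edgeR's quasi-likelihood test gave a Benjamini-Hochberg adjusted p under 0.01 together with a log2 fold change beyond 1 in either direction, the threshold of the study's methods. Against parental cells, untreated #A-59 had 1 of the 8 tested genes called, lower, where 4.78% of the 15318 tested genes were called. At 6 h of anti-IgM #A-59 again had 1 lower (7.91% of all genes), and at 18 h 1 lower (4.92%). That gene was Cd274 each time. In #B-20, 2 were lower at 0 h (5.16% of all genes called), 3 higher and 2 lower at 6 h (6.73%), and 2 lower at 18 h (6.21%). The 2 lower genes were Cd274 and Lag3 at every time, and the 3 higher at 6 h were Icosl, Btla and Cd83. At 6 h, therefore, 5 of the 8 genes were called between #B-20 and parental cells with all libraries in the fit. The calls on Cd83 and Lag3 among them were not kept without 1 library or another, as described below. The median log2 fold change of the 8 genes in that comparison was 0.445, against 0.00762 over all tested genes. Both clones were compared with the same parental libraries.

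**Figure D2:**
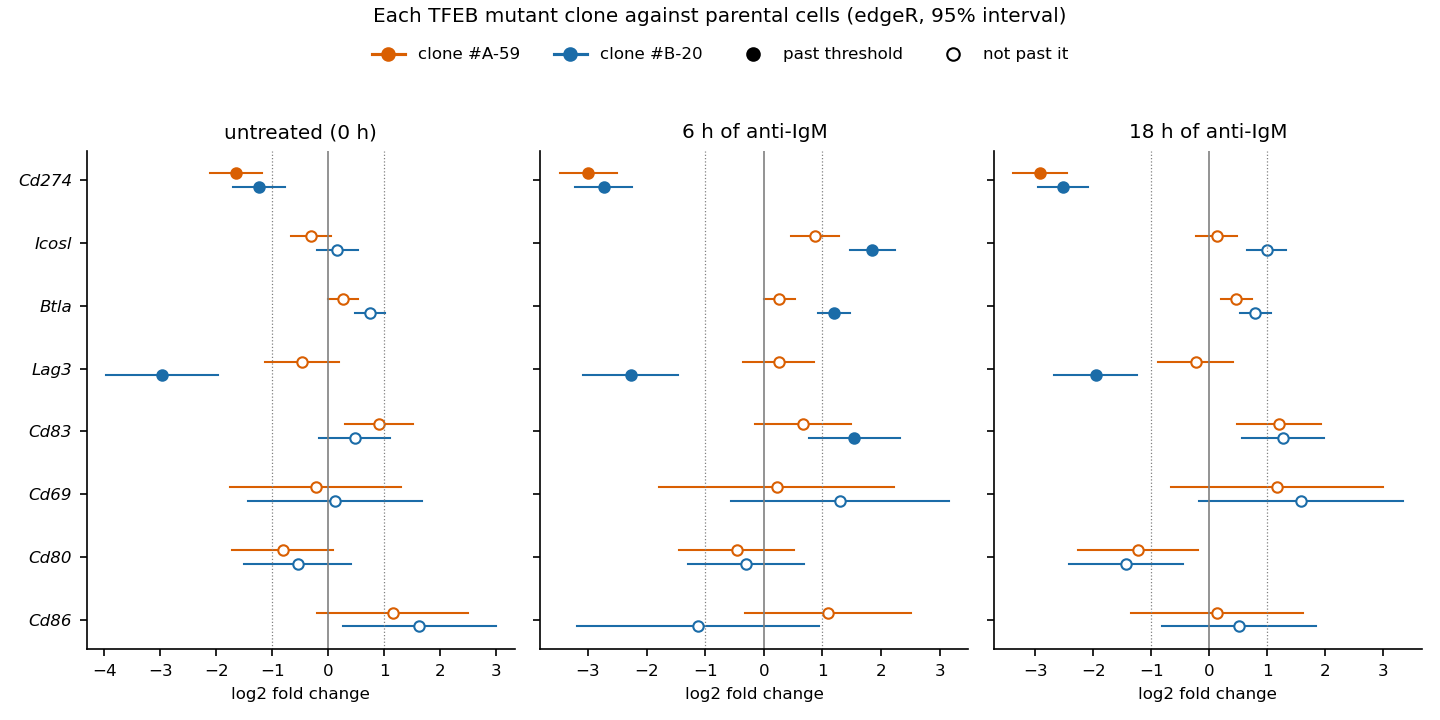
Log2 fold change of each clone against parental cells at 0, 6 and 18 h for the 8 tested genes, with 95% intervals from the edgeR fit, filled points past the threshold, and dotted lines at −1 and 1. Cd274 lies below −1 in both clones at every time, and Lag3 only in #B-20.

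Cd274 (ENSMUSG00000016496, chromosome 19, 29362107 to 29388095 of GRCm38.p6) was the gene of the set with a called difference from parental cells in both clones. Parental cells held 9.37 and 12.3 CPM before stimulation, 16.8 and 19.9 after 6 h and 30.2 and 27.5 after 18 h. Clone #A-59 held 3.79 and 3.003 CPM before stimulation, 2.35 and 2.23 after 6 h and 4.56 and 3.02 after 18 h. In #B-20 the values were 5.29 and 3.91 CPM before stimulation, 2.61 and 2.94 after 6 h and 6.04 and 3.95 after 18 h. Every library of a clone was thus below every parental library, also below the untreated ones. In bulk RNA, less transcript per cell and fewer cells with the transcript cannot be told apart. In #A-59 the level was 3.13-fold lower than in parental cells at 0 h (log2 fold change −1.65, standard error 0.22, adjusted p = 2.04e-05), 7.98-fold lower at 6 h (−2.996, adjusted p = 1.33e-08) and 7.52-fold lower at 18 h (−2.91, adjusted p = 1.55e-08). In #B-20 it was 2.35-fold lower at 0 h (−1.23, standard error 0.22, adjusted p = 0.000575), 6.65-fold lower at 6 h (−2.73, adjusted p = 4.79e-08) and 5.74-fold lower at 18 h (−2.52, adjusted p = 3.23e-08). The call of #B-20 at 0 h was lost without replicate 2 of untreated parental cells (−1.03, adjusted p = 0.0133) and without replicate 2 of untreated #B-20 (−1.03, adjusted p = 0.0223).

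Along the time course, Cd274 rose in parental cells by 18 h (log2 fold change 1.41, 95% interval 1.01 to 1.82, adjusted p = 9.98e-06), and the 6 h value of 0.77 (0.37 to 1.17, adjusted p = 0.0108) did not pass the threshold. In #A-59 the values were −0.58 at 6 h (adjusted p = 0.153) and 0.15 at 18 h (−0.37 to 0.67, adjusted p = 0.659). In #B-20 they were −0.73 at 6 h (adjusted p = 0.18) and 0.13 at 18 h (−0.37 to 0.62, adjusted p = 0.716). The difference between each clone's response and the parental one was tested itself and was negative in all 4 cases. In #A-59 the 6 h value was −1.35 (adjusted p = 0.039) and the 18 h value −1.27 (adjusted p = 0.159). In #B-20 they were −1.50 (adjusted p = 0.0457) and −1.29 (adjusted p = 0.0607), so that none of the 4 passed the threshold with the filter on low counts. Without that filter all of them did, and DESeq2 called that of #B-20 at 6 h. In the order of the 9 groups, the 3 parental groups came first without overlap, and the 4 groups of the clones at 0 and 18 h, whose means ran from 5.00 CPM in #B-20 at 18 h to 3.40 CPM in untreated #A-59, overlapped with their neighbours.

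Cd274 shares exonic sequence with 2 genes on the opposite strand, and the libraries do not mark the strand. On GRCm39, 581 bases, or 14.2% of its exons, overlap the predicted gene Gm36043, and 219 bases, or 5.37%, overlap Plgrkt, which encodes a plasminogen receptor. Both were also lower in the clones. Gm36043 had log2 fold changes of −1.51 at 0 h, −2.16 at 6 h and −2.996 at 18 h in #A-59 and of −0.90, −1.82 and −2.31 in #B-20. Plgrkt had −1.06, −1.34 and −1.43 in #A-59 and −0.73, −1.39 and −1.40 in #B-20, and the values of both genes at 0 h in #B-20 did not pass the threshold. Plgrkt rose by 18 h in #A-59 (1.12, adjusted p = 1.37e-06) and in parental cells (1.49, adjusted p = 2.73e-08). In #B-20 its value was 0.82 (adjusted p = 7.46e-05), under the log2 threshold. Gm36043 rose by 18 h in parental cells (1.24, adjusted p = 5.9e-07). Its values were −0.24 in #A-59 (adjusted p = 0.257) and −0.16 in #B-20 (adjusted p = 0.44). The 18 h response of Gm36043 differed from the parental response by −1.49 in #A-59 (adjusted p = 0.00569) and by −1.41 in #B-20 (adjusted p = 0.00281). Which of these genes a read from the shared bases was counted on was not tested.

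Icosl (ENSMUSG00000000732, chromosome 10, 78069368 to 78079525) fell early in parental cells and rose late in all 3 genotypes. The parental libraries held 6.33 and 6.70 CPM before stimulation, 2.88 and 2.70 after 6 h and 12.5 and 8.97 after 18 h. In #A-59 the level was 5.25 and 5.28 CPM before stimulation, 5.19 and 5.01 after 6 h and 12.6 and 10.4 after 18 h. Clone #B-20 had 6.36 and 8.18 CPM before stimulation, 10.5 and 9.67 after 6 h and 19.6 and 22.5 after 18 h. The lowest libraries were thus the parental ones at 6 h and the highest those of #B-20 at 18 h. Untreated #B-20 and parental cells overlapped, as did #A-59 and parental cells at 18 h, and parental cells at 18 h also overlapped with #B-20 at 6 h.

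In parental cells Icosl fell 2.33-fold within 6 h (log2 fold change −1.22, standard error 0.19, adjusted p = 0.000156). At the same time it was −0.04 in #A-59 (95% interval −0.42 to 0.33, adjusted p = 0.909) and 0.47 in #B-20 (0.11 to 0.83, adjusted p = 0.183). The 6 h response of #B-20 differed from the parental response by 1.69 on the log2 scale (standard error 0.25, adjusted p = 0.00279). That of #A-59 differed by 1.18 (adjusted p = 0.0221), which did not pass the threshold. At 6 h the level in #B-20 was 3.61-fold that in parental cells (1.85, adjusted p = 3.98e-07), and #A-59 against parental cells gave 0.87 (adjusted p = 0.00183), under the log2 threshold. By 18 h against 0 h Icosl rose in #A-59 (1.13, adjusted p = 3.00e-05) and in #B-20 (1.53, adjusted p = 2.18e-06), while the parental value was 0.70 (adjusted p = 0.00253). The call on the difference of responses was lost (adjusted p = 0.0111 to 0.0349) without either parental library at 0 or 6 h, replicate 1 of untreated #B-20, or either #B-20 library at 6 h. The late rise of #A-59 fell under the log2 threshold (0.96) without its replicate 1 at 18 h.

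Btla (ENSMUSG00000052013, chromosome 16, 45223705 to 45252895), the inhibitory receptor of HVEM, was the most abundant gene of the set. Parental cells held 99.9 and 111 CPM before stimulation, 91.4 and 88.2 after 6 h and 154 and 123 after 18 h. The level in #A-59 was 112 and 142 CPM before stimulation, 100.1 and 116 after 6 h and 205 and 178 after 18 h. Clone #B-20 had 175 and 180 CPM before stimulation, 213 and 200 after 6 h and 220 and 261 after 18 h. All libraries of #B-20 lay above all parental libraries, and those of #A-59 at 18 h overlapped with #B-20 at 0 and 6 h. Against parental cells the log2 fold change of #B-20 was 0.75 at 0 h (adjusted p = 0.000313), 1.20 at 6 h (standard error 0.13, adjusted p = 1.05e-06) and 0.80 at 18 h (adjusted p = 0.000128), and only the 6 h value passed the log2 threshold. The values of #A-59 were smaller, at 0.27, 0.27 and 0.47 (lowest adjusted p = 0.0151). No response of Btla to anti-IgM passed the threshold in any genotype, and its values at 18 h ran from 0.39 in parental cells to 0.59 in #A-59.

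Lag3 (ENSMUSG00000030124, chromosome 6, 124904359 to 124912434), whose protein binds MHC class II, set clone #B-20 apart from both other genotypes. Parental cells held 3.22 and 1.86 CPM before stimulation, 3.19 and 3.44 after 6 h and 4.64 and 3.42 after 18 h. Clone #A-59 held 2.27 and 1.35 CPM before stimulation, 4.24 and 3.62 after 6 h and 3.41 and 3.32 after 18 h. The values of #B-20 were 0.268 and 0.372 CPM before stimulation, 0.394 and 1.05 after 6 h and 1.21 and 0.821 after 18 h, which rest on 4 to 34 counts. Every library of #B-20 lay below every library of the other genotypes. Against parental cells Lag3 in #B-20 was 7.83-fold lower at 0 h (log2 fold change −2.97, standard error 0.47, adjusted p = 0.000158), 4.82-fold lower at 6 h (−2.27, adjusted p = 0.000224) and 3.87-fold lower at 18 h (−1.95, adjusted p = 0.000307). The corresponding values of #A-59 were −0.46 (95% interval −1.12 to 0.20), 0.26 (−0.35 to 0.86) and −0.23 (−0.88 to 0.42), none of them called.

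Of the 8 tested genes, 1 was called between the clones at 0 h (3.85% of all genes), 1 at 6 h (5.82%) and 1 at 18 h (4.82%), and each time this was Lag3, lower in #B-20. The log2 fold changes of #B-20 against #A-59 were −2.51 (adjusted p = 0.0017), −2.53 (adjusted p = 7.62e-05) and −1.72 (adjusted p = 0.000975). At 0 h the call was lost without any 1 of 3 libraries, namely replicate 1 of #A-59 or either replicate of #B-20 (adjusted p = 0.0174 to 0.0427). At 18 h it was lost without replicate 1 of #A-59 (−1.70, adjusted p = 0.0108) or replicate 2 of #B-20 (−1.48, adjusted p = 0.0179). At 6 h against parental cells the call was lost without replicate 1 of #B-20 (−1.68, adjusted p = 0.0116). The fold changes of #B-20 followed the GC content of genes at 0 and 6 h, with a Spearman's rho across genes of −0.344 and −0.271 against parental cells and of −0.399 and −0.453 against #A-59. Genes are not independent replicates, and these values are descriptions. The longest transcript of Lag3 has a GC content of 60.2% and that of Btla one of 40.8%. After a correction for GC content, Lag3 in #B-20 against parental cells was at −2.63, −2.02 and −1.79, and Btla at 6 h at 1.02, so that all 4 calls were kept.

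After 6 h of anti-IgM, 2 of the 8 genes were lower in parental cells (2.62% of all genes called), 1 was lower in #A-59 (1.39%) and 0 were called in #B-20 (0.385%). In #B-20, 4 genes had an unadjusted p under 0.05, and DESeq2 also called 0. By 18 h against 0 h, 1 gene was higher in parental cells (10.3% of all genes called), 1 in #A-59 (8.76%) and 1 in #B-20 (4.8%), namely Cd274 in parental cells and Icosl in the clones. Between 6 and 18 h, 1 gene rose in parental cells (13.5% of all genes called), 2 in #A-59 (9.02%) and 1 in #B-20 (4.45%). Icosl was among them in every genotype, with log2 fold changes of 1.92 (adjusted p = 1.29e-07), 1.17 (adjusted p = 2.55e-05) and 1.06 (adjusted p = 4.81e-05). In the last of these the value dropped to 0.98 under the GC correction and to 0.98 and 0.94 without replicate 2 of #B-20 at 6 h or at 18 h, below the log2 threshold.

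**Figure D3:**
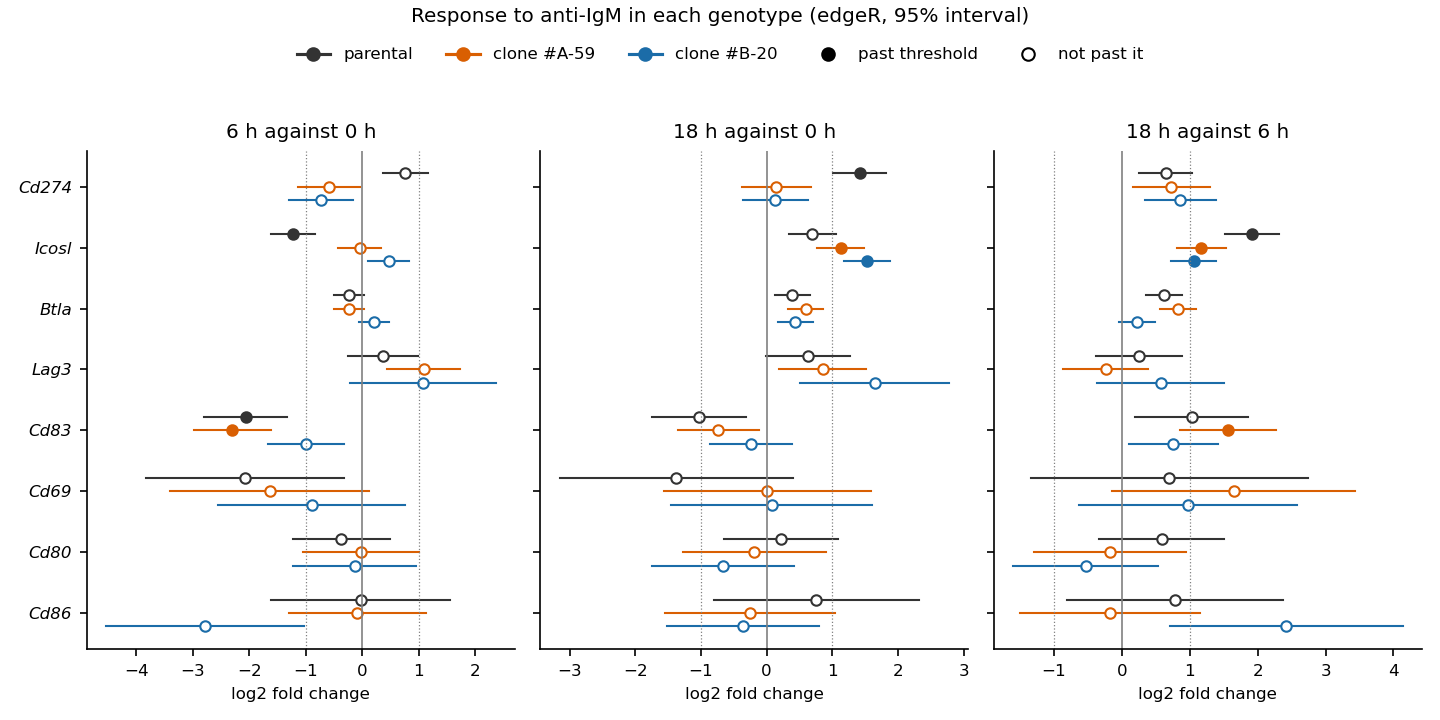
Log2 fold change after anti-IgM in parental cells, #A-59 and #B-20 for the 8 tested genes (6 h against 0 h, 18 h against 0 h and 18 h against 6 h), with 95% intervals from the edgeR fit and filled points past the threshold. Cd83 falls by 6 h in parental cells and #A-59, and Icosl rises from 6 to 18 h in all 3 genotypes.

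Cd83 (ENSMUSG00000015396, chromosome 13, 43785112 to 43803133) was the activation marker with called changes, and it fell early. Parental cells held 9.01 and 10.7 CPM before stimulation, 2.84 and 1.88 after 6 h and 6.60 and 3.48 after 18 h. In #A-59 the level was 16.7 and 20.5 CPM before stimulation, 4.28 and 3.08 after 6 h and 14.4 and 7.66 after 18 h. Clone #B-20 had 11.98 and 15.3 CPM before stimulation, 7.19 and 6.53 after 6 h and 14.04 and 9.22 after 18 h. In each genotype both libraries at 6 h lay below both at 0 h, and all libraries of the clones lay above the parental ones of the same time. By 6 h Cd83 fell 4.18-fold in parental cells (log2 fold change −2.06, standard error 0.34, adjusted p = 0.000758) and 4.93-fold in #A-59 (−2.30, adjusted p = 0.000284), and the value in #B-20 was −0.99 (95% interval −1.66 to −0.32, adjusted p = 0.125). It rose again from 6 to 18 h in #A-59 (1.56, adjusted p = 0.00138). At 6 h the level in #B-20 was 2.92-fold the parental one (1.55, adjusted p = 0.00581). At 18 h both clones were above parental cells by 1.21 for #A-59 (adjusted p = 0.0226) and by 1.28 for #B-20 (adjusted p = 0.0112), which missed the threshold. These 18 h results depended on the processing. DESeq2 and the fit without the filter on low counts called the difference of #A-59, and the replicate block called that of #B-20.

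Each of the 4 calls on Cd83 in the main fit was lost without 1 library or another. That in parental cells was lost without replicate 2 at 0 h (adjusted p = 0.0106) or at 6 h (adjusted p = 0.0223), and the early fall in #A-59 without replicate 1 of #A-59 at 6 h (adjusted p = 0.0121). The later rise in #A-59 was lost without either of its 6 h libraries or replicate 1 at 18 h (adjusted p = 0.018 to 0.0358), and the call of #B-20 against parental cells without any 1 of the 6 libraries at 6 h, those of #A-59 included (adjusted p = 0.0162 to 0.0806).

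Cd69 (ENSMUSG00000030156, chromosome 6, 129267324 to 129275375) had no called difference in any of the 22 comparisons, although 1 of them had an unadjusted p under 0.05 in edgeR, and DESeq2 also called 0. Parental cells held 11.7 and 11.4 CPM before stimulation, 2.71 and 2.74 after 6 h and 8.12 and 1.71 after 18 h. In #A-59 the values were 9.55 and 10.3 CPM before stimulation, 3.52 and 2.72 after 6 h and 14.5 and 5.25 after 18 h. The level in #B-20 was 13.7 and 11.4 CPM before stimulation, 9.75 and 3.33 after 6 h and 20.04 and 6.31 after 18 h. At 18 h replicate 1 was the higher one in all 3 genotypes, and over the 9 groups it was higher in 7, by up to 2.18 on the log2 scale. The 6 h values were −2.08 in parental cells (95% interval −3.83 to −0.33, adjusted p = 0.127), −1.64 in #A-59 (adjusted p = 0.209) and −0.90 in #B-20 (adjusted p = 0.645). Fitted on only the libraries compared, the values of parental cells and #A-59 were called. At 18 h against 0 h the differences between same-numbered libraries disagreed in sign in the clones, with 0.59 in replicate 1 and −0.95 in replicate 2 of #A-59 and with 0.54 and −0.84 in #B-20. In parental cells both were negative, at −0.52 and −2.67. Between genotypes the values at 18 h were 1.17 in #A-59 (95% interval −0.66 to 2.99) and 1.57 in #B-20 (−0.18 to 3.33).

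Cd80 (ENSMUSG00000075122) and Cd86 (ENSMUSG00000022901), both on chromosome 16, had no called difference in any of the 22 comparisons by edgeR or DESeq2. Cd80 had 24 and 20 counts in untreated parental cells and 7 to 13 in the untreated clones, in libraries of unlike depth. In CPM these were 0.868 and 0.828 in parental cells, 0.339 and 0.673 in #A-59 and 0.736 and 0.434 in #B-20. At 0 h the log2 fold change in the edgeR fit was −0.81 in #A-59 (adjusted p = 0.251) and −0.54 in #B-20 (adjusted p = 0.466). At 18 h its parental level was 1.07 and 0.934 CPM, and that of the clones was 0.419 and 0.422 CPM in #A-59 and 0.427 and 0.298 CPM in #B-20, without overlap. The log2 fold changes against parental cells were −1.22 (95% interval −2.26 to −0.19, adjusted p = 0.103) and −1.43 (−2.41 to −0.45, adjusted p = 0.033). In its 6 clone values relative to parental cells, Cd80 ran from −1.43 to −0.31, and 2 had an unadjusted p under 0.05. Its exons share 276 bases with Timmdc1 on the opposite strand, or 6.68% of their length on GRCm39. Cd86 ranged from 0 counts in 1 #B-20 library at 6 h to 18 counts in 1 #B-20 library at 18 h. Of its 22 comparisons 5 had an unadjusted p under 0.05, and its smallest adjusted p was 0.0274, for 18 h against 6 h in #B-20, where the earlier libraries had 3 and 0 counts. At this depth no difference of Cd86 passed the threshold, and its intervals were wide. The widest against parental cells ran from −3.19 to 0.93 (#B-20 at 6 h).

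The response of a clone against the parental response was called for 0 of 8 genes in #A-59 at 6 h (0.339% of all genes called) and for 0 at 18 h (0.0326%). In #B-20 it was called for 1 at 6 h (0.131%), which was Icosl, and for 0 at 18 h (0.163%). With an unadjusted p under 0.05 in the edgeR fit there were 2 genes in #A-59 at 6 h and 1 at 18 h. In #B-20 there were 5 at 6 h (3 higher and 2 lower) and 2 at 18 h. DESeq2 called 1 in #A-59 at 6 h, which was Icosl, and 0 at 18 h. In #B-20 it called 2 at 6 h (1 higher and 1 lower) and 0 at 18 h.

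Partners of these proteins were examined as a list of 11 receptors and ligands, 6 of them tested. In parental cells 1 rose by 6 h (2.62% of all genes called), and by 18 h 1 was higher and 1 lower (10.3%). Pdcd1, the receptor of PD-L1, was higher at both times (log2 fold change 1.77, adjusted p = 0.000135, and 1.15, adjusted p = 0.00247), from 5.14 and 3.56 CPM to 17.2 and 12.6 CPM at 6 h. Tnfsf14, a ligand of HVEM, was lower at 18 h (−1.81, adjusted p = 5.86e-05). In #A-59 Pdcd1 started from a higher level than in parental cells, at 12.1 and 9.68 CPM (1.33, adjusted p = 0.00149), and its 6 h response differed from the parental response by −2.03 (adjusted p = 0.0055). In #B-20 Pdcd1 rose by 6 h (1.36, adjusted p = 0.00888), from 5.82 and 5.21 CPM to 16.6 and 11.5 CPM. Against parental cells, no partner gene was called with the same sign in #A-59 and #B-20 at the same time.

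Of 40 other surface genes of B cell activation, costimulation and inhibition, 33 were tested. By 18 h of anti-IgM 11 of them were higher and 4 lower in parental cells, while #A-59 had 8 and 2 and #B-20 had 8 and 1, where 10.3%, 8.76% and 4.8% of all tested genes were called. The medians were 0.50, 0.45 and 0.55 on the log2 scale against 0.04, 0.02 and 0.03 over all tested genes. Among the largest called parental responses were those of Tnfrsf9 (4-1BB), Slamf1, Slamf6 and Fcgr2b, the inhibitory Fc receptor of B cells. Fcgr2b rose 18 h after stimulation from 37.5 and 37.4 CPM to 158 and 136 CPM (1.97, adjusted p = 1.49e-10), and Slamf6 from 7.12 and 8.52 to 41.0 and 36.9 CPM (2.32, adjusted p = 6.60e-09). Tnfrsf9 appeared in parental cells at 6 h alone, with 37 and 35 counts there and at most 2 counts in the other parental libraries, whereas #A-59 had 4 and 5 and #B-20 2 and 0 counts at 6 h. Against parental cells, 3 were higher and 5 lower in each untreated clone, where 4.78% of all genes were called in #A-59 and 5.16% in #B-20. Among those called in both, Cd226, a receptor of nectins and nectin-like proteins, had 148 and 126 counts in untreated parental cells and 0 to 3 in every library of the clones. Slamf7 at 18 h was at 24.8 and 23.9 CPM in parental cells, 2.83 and 2.65 in #A-59 (−3.14, adjusted p = 7.57e-11) and 11.2 and 11.6 in #B-20 (−1.09, adjusted p = 6.45e-06). Ly9 and Tigit, called as lower in both clones at 18 h, had no more than 21 counts in any library. Other surface genes were called as higher in both clones. These were Sirpa at 0, 6 and 18 h (1.011 to 1.235 in #A-59 and 1.803 to 2.172 in #B-20), Cd84 at 0 and 6 h, and Cd40 and Ceacam1 at 6 h. Slamf1 at 0 h and Nectin2 at 18 h were also lower in both.

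As a check of the stimulus, 10 early BCR response genes were examined, of which 8 were tested. The first stimulated libraries were taken at 6 h, so that an earlier rise was not measured. The check therefore cannot decide whether the stimulus acted. By 6 h, 0 were called as higher in any genotype by edgeR or DESeq2, and with an unadjusted p under 0.05 parental cells had 1 higher, #A-59 had 0 and #B-20 had 1. As lower, parental cells had 1 called, #A-59 had 3 and #B-20 had 0, where 2 had an unadjusted p under 0.05. Over all genes 2.62%, 1.39% and 0.385% were called in these comparisons. Egr3 was lower at 6 h in parental cells (−1.55, adjusted p = 0.00551) and Myc at 18 h (−2.48, adjusted p = 0.00014), from 337 and 306 CPM to 72.8 and 43.2 CPM. Nr4a3 was lower in both clones at 0 and 6 h and Cd9 at 18 h.

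The genes whose course over the 18 libraries was most like that of a member were found by the root mean square difference of log2 CPM, each gene centred on its own mean, among the 12480 other tested genes with a mean of at least 1 CPM. For Cd274 the closest was its antisense neighbour Gm36043 (0.347), followed by Irs2 (0.419) and Vps45 (0.43), where the median over all genes was 1.24. Cd83 was closest to Tnf (0.35), Plscr1 (0.416) and Nfkbia (0.431), with a median of 0.998. Cd69 was closest to Tnf (0.431), Cd83 (0.513) and Tnfaip3 (0.57), with a median of 1.05. Btla had the nearest neighbours of the set in Pde7a (0.146), Rchy1 (0.174) and Dsg2 (0.19), with a median of 0.569. For Icosl they were Thap6 (0.327), Tas1r1 (0.329) and Id3 (0.362), and for Lag3 Spn (0.464), Grm4 (0.464) and Mxra7 (0.501). These distances are descriptions and share the depth and genotype of each library. Cd274 and Gm36043 also share exonic bases, and whether their likeness comes from reads of these bases was not tested.

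Across the 22 comparisons, 26 values of the 8 genes were called, and with any 1 library left out 15 of them stayed past the threshold and 11 did not in at least 1 case, while 0 changed sign. The 11 were 4 of Cd83, 3 of Icosl, 3 of Lag3 and 1 of Cd274. All calls on Cd274 at 6 and 18 h against parental cells were among the 15.

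**Figure D4:**
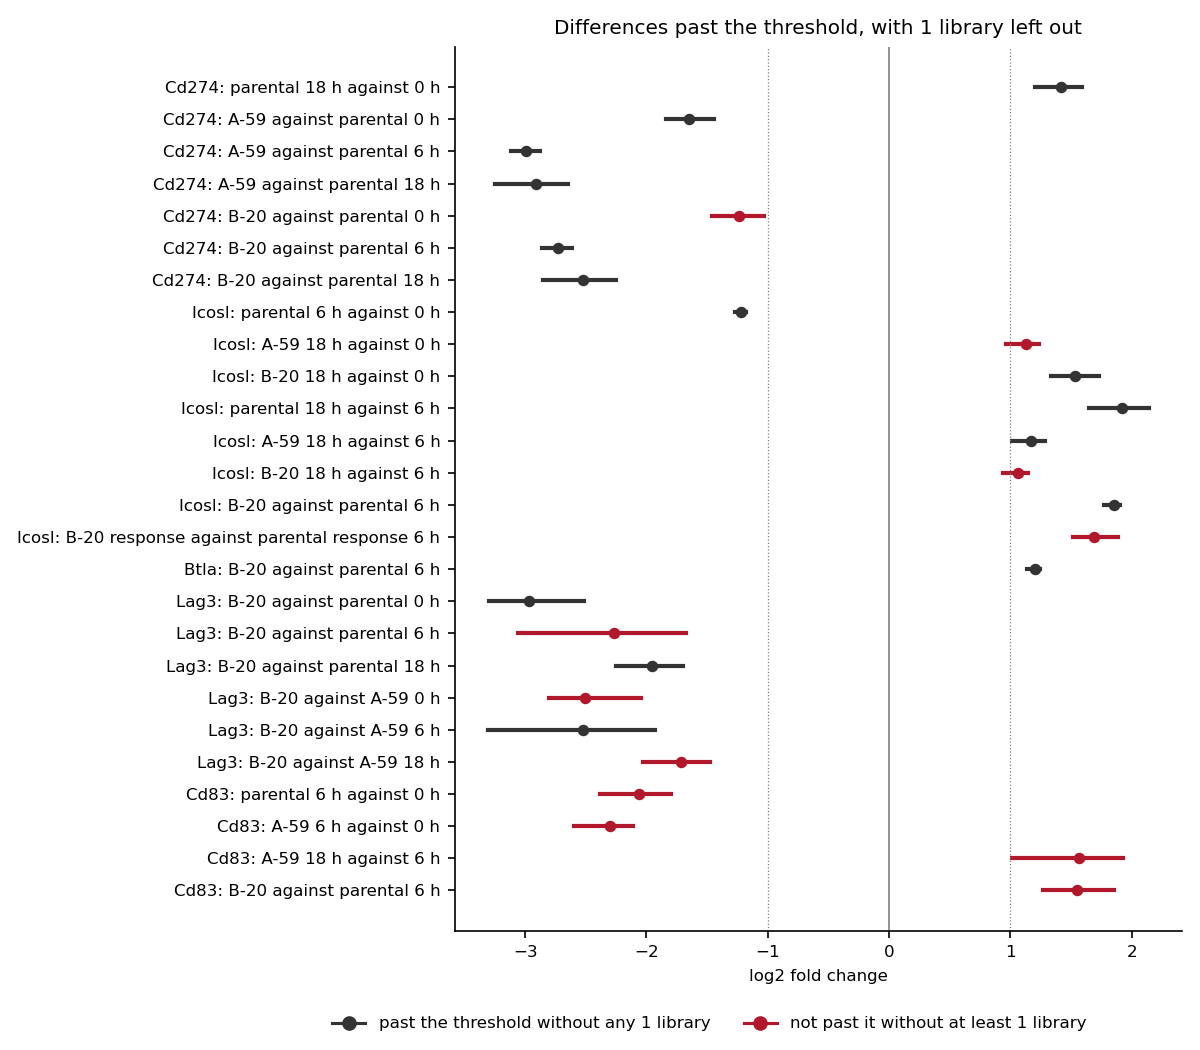
Log2 fold change of the 26 called values (points) and their range without 1 of the libraries compared or another library whose absence lost the call (bars), in black where every fit without 1 library kept the call and in red where at least 1 did not, with dotted lines at −1 and 1. No bar crosses 0, and those of Cd274 in the clones against parental cells at 6 and 18 h stay below −2.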

How the data were processed

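RNA from the 18 libraries had been sequenced as single reads after a TruSeq mRNA preparation that does not mark the strand. According to the submitters' processing notes, the authors used STAR 2.5, featureCounts 1.5.0-p1 and the genome GRCm38, and deposited raw counts per gene, 1 table of 55487 genes per library. The counting options are not given in the sources used here. Reads shared by overlapping genes may therefore have been dropped or counted on either gene.

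Counts were tested with edgeR 4.0.16 in R 4.3.3 (quasi-likelihood test, TMM scaling, filterByExpr, 1 mean for each of 9 groups, all 18 libraries), with Benjamini-Hochberg adjustment over 15318 genes in each of 22 comparisons. A call needed an adjusted p under 0.01 with a log2 fold change beyond 1 in either direction. The study's methods name DESeq2, which was used as an alternative (version 1.42.0). The other alternatives were DESeq2 size factors, no filter on low counts, a replicate block, a GC correction (loess span 0.5), a fit on only the libraries compared, and leaving out each library. The scripts were tested on simulated data. GRCm39 served for exon overlap, gene length and GC content, and RefSeq on GRCm38.p6 for coordinates and start regions, where 5 of the 9 genes had an entry (none for Cd86, Cd69, Cd83 and Lag3). The replicates of every group differed by more than counting noise, so that none was 1 library deposited in duplicate.

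The 9 genes and all lists were chosen with earlier results of these data known. Genes named from the lists were those called with 1 sign in both clones at a time point, or called in parental cells after anti-IgM, at most 5 of each kind in each list by absolute log2 fold change. Named outside this rule, after their values were seen, were Gm36043, Plgrkt and Timmdc1, which overlap members. Sirpa, Cd84, Cd40, Ceacam1 and Nectin2 were also named outside it, so that all surface genes called with 1 sign in both clones are given. Of the genes this rule names, 1 is not reported here.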

Additional observations from a re-analysis of the deposited data

Results flagged for a closer look

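The 6 h response of Icosl differed between genotypes by the test of the difference itself. It was 1.69 higher in #B-20 than in parental cells on the log2 scale (standard error 0.25, edgeR adjusted p = 0.00279). Both #B-20 libraries at 6 h (10.5 and 9.67 CPM) lay above both untreated ones (6.36 and 8.18 CPM), and both parental libraries at 6 h (2.88 and 2.70 CPM) lay below the untreated ones (6.33 and 6.70 CPM). Without 1 of the 8 libraries compared the difference ranged from 1.51 to 1.88, and the call was lost in 7 of these fits. Groups of 2 libraries were too small for a check on single outlying libraries.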

How the results depend on the processing

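All 26 called values kept their direction under every alternative, and all 26 stayed called under DESeq2 size factors, DESeq2, no filter on low counts, a fit on only the libraries compared and the replicate block. The GC correction lost 1 call and leaving out 1 library lost 11. The cause was not tested. The limits lie in 2 libraries per group, in counts under 25 for Cd80 and Cd86, and in a threshold on the fold that several values lie close to.

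Of the 8 tested genes, DESeq2 called 2 in parental cells at 18 h against 0 h (Cd83 in addition) and 2 at 18 h against 6 h, 2 in #A-59 against parental cells at 18 h, and 1 and 2 for the 6 h responses of #A-59 and #B-20 against the parental response. Without the filter there were 2 in parental cells at 18 h, 2 in #A-59 at 6 h, 1 in #B-20 at 6 h and 2 at 18 h, 2 in #A-59 and 4 in #B-20 against parental cells at 18 h, 2 and 1 for the responses of #A-59 at 6 and 18 h, and 2 and 1 for those of #B-20. On only the libraries compared there were 2 in parental cells at 18 h and 2 in #A-59 at 6 h. With the GC correction there were 0 in #B-20 at 18 h against 6 h and 2 for #B-20 against #A-59 at 6 h.

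Without 1 of the libraries compared, or another library whose absence moved the count by over 1.5 times, the count ranged from 1 to 2 in parental cells at 6 h and at 18 h against 0 h, from 0 to 1 in #A-59 at 6 h, from 1 to 2 in #A-59 and from 0 to 1 in #B-20 at 18 h against 6 h. It ranged from 1 to 2 for #A-59 against parental cells at 18 h, from 1 to 2, 3 to 4 and 2 to 4 for #B-20 at 0, 6 and 18 h, from 0 to 1 for the 6 h response of #B-20, and from 0 to 1, 1 to 2 and 0 to 1 between the clones.

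Over all genes, the counts of calls that moved by more than 1.5 times were mostly those of response differences. For #A-59 at 6 h the 52 calls became 107 without the filter and 1 on only the libraries compared, and at 18 h the 5 calls became 11 with DESeq2, 20 without the filter and 9 with the block. For #B-20 the 20 calls at 6 h became 32, 65 and 34, and the 25 at 18 h became 39, 80 and 38, or 15 on only the libraries compared. The 59 calls of #B-20 at 6 h against 0 h became 97 without the filter, and the 213 of #A-59 became 49 on only the libraries compared.

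No label says that a replicate number marks a shared experiment. Same-numbered libraries deviated together with a correlation over 0.1 in 21 of 36 pairs of groups (−0.0413 to 0.497, median 0.125). The main fit did not pair the samples by these numbers, and the replicate block, which takes them into account, was an alternative. With the replicate block, Icosl in parental cells at 6 h was at −1.22, and Cd83 in #B-20 against parental cells at 18 h was called in addition.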
